A study of Mus musculus with 6 samples.

Results

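A group of 10 genes that mark microglia or encode complement C1q were followed through RNA sequencing of 6 mouse primary cortical neuronal cultures. They are the 3 chains of C1q (C1qa, C1qb and C1qc), the receptors Csf1r, Cx3cr1, P2ry12 and Trem2, the Trem2 adaptor Tyrobp, the Fc receptor-like protein Fcrls and the lysosomal membrane protein Laptm5. They were taken from a list of names with no threshold on their values, chosen with earlier results of these data known. Each of the 10 was found among 31245 genes of the table. The cultures came from cortex of pups of postnatal day 1 and were used at day 12 to 13 in vitro. In the NGPF2 group, 3 cultures received NGPF2 at 1.5 ng/ml for 2 h, and in the control group 3 cultures received vehicle (PBS) for 2 h. By the series' own statement these make 3 vehicle and NGPF2 pairs from 3 independent experiments, so a pair here is the vehicle and NGPF2 cultures with the same replicate number. The labels do not give strain, sex or the number of pups per culture. In the sample titles, replicates 2 and 3 share a library-name stem that replicate 1 lacks. The titles do not call this a batch. In the table the replicate 1 columns carry the digit 3 and not 1 in their names. They were assigned by elimination and by their initial, since the other 4 columns carry the library names of replicates 2 and 3, and every value given for replicate 1 or pair 1 rests on this. The genes are described for each pair and for these 2 sets of cultures.

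Microglia are the resident macrophages of the brain and enter it from the yolk sac, so that a culture made from dissociated cortex can carry some of them beside neurons and astrocytes. They depend on signals through Csf1r, the receptor of the cytokines Csf1 and Il34. They sense neurons through Cx3cr1, the receptor of fractalkine, and nucleotides through P2ry12. Trem2 binds lipids and apolipoproteins and signals through Tyrobp, a membrane adaptor with an immunoreceptor tyrosine-based activation motif. C1q is the recognition molecule of the classical complement pathway, is made mainly by microglia in the brain, and tags synapses for removal during development.

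The 3 C1q genes lie side by side on the minus strand of chromosome 4 (mm10), within 18.7 kb. C1qb (ENSMUSG00000036905) runs from 136880129 to 136886187, C1qc (ENSMUSG00000036896) from 136889804 to 136893065 and C1qa (ENSMUSG00000036887) from 136895917 to 136898803. Laptm5 (ENSMUSG00000028581) is on the same chromosome, 130913125 to 130936141, plus strand. Fcrls (ENSMUSG00000015852) and P2ry12 (ENSMUSG00000036353) are both on the minus strand of chromosome 3, at 87250758 to 87263738 and 59216272 to 59262871. Cx3cr1 (ENSMUSG00000052336) is on chromosome 9, 119901616 to 120069879, minus strand. Trem2 (ENSMUSG00000023992) is on chromosome 17, 48346401 to 48354147, plus strand. Tyrobp (ENSMUSG00000030579) is on chromosome 7, 30413760 to 30417585, plus strand. In GENCODE M21, P2ry12 shares 9 exonic bases with Med12l on the opposite strand, and Cx3cr1 shares 78 with an antisense gene. Whether reads were counted by strand is not stated, so reads in such stretches cannot be assigned.

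A motif shared by promoters of myeloid genes is the PU box, GAGGAA, the core bound by the transcription factor PU.1 (gene Spi1), which directs macrophage and microglial genes. RefSeq start sites (GRCm38.p6) were matched by symbol for 7 of the 10 genes, and the 250 bases before each start were searched on both strands for GAGGAA and for the longer ETS match AGGAAGT, which can overlap it. GAGGAA was found for 5 of the 7 (C1qb, C1qc, Laptm5, Fcrls and Trem2), against 23.3% of 32851 windows of that length. AGGAAGT was found for 4 of the 7 (C1qb, C1qc, Fcrls and P2ry12), against 7.69%. The joined match GAGGAAGT occurred in C1qc alone among the 7, against 2.44% of the windows. Neither match was present in the Cx3cr1 window. These are matches of letters, not shown to be bound. The 3 stretches below are those free of annotated exons, shown because each of these genes fell within replicates 2 and 3 in the values that follow. Each is written 5′ to 3′ on the gene's strand, and capitals mark the matches on either strand. They cover chr4:136886201-136886283 for C1qb (minus strand), chr4:136893072-136893139 for C1qc (minus strand) and chr17:48346331-48346396 for Trem2 (plus strand).
C1qb: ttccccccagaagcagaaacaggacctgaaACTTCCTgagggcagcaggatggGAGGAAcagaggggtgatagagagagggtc
C1qc: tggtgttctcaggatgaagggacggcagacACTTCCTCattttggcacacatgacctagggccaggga
Trem2: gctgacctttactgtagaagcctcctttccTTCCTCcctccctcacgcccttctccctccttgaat
The matches begin 53 and 30 bases before the start of C1qb, 195 and 193 before that of C1qc and 40 before that of Trem2.

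A normalized count is a gene's count over its library's size factor. Differences on the log2 scale were taken after adding 1 to it. Total counts per library ran from 17478070 to 45193691, and 1 read was worth 0.64 to 1.79 normalized counts. The 10 genes together held 3493 and 3628 counts in vehicle 1 and NGPF2 1, then 757 and 477 in the vehicle cultures of replicates 2 and 3, against 58 and 71 in their NGPF2 cultures. They are rare transcripts here. Their summed normalized count ran from 69.3 to 2321, while that of 10 neuronal markers ran from 220143 to 344270. Tests covered 16653 genes, those averaging 10 or more normalized counts. They include 9 of the 10, and P2ry12, with a mean of 7.20, was not among them. In RNA of whole cultures, fewer cells of a type and less RNA per cell cannot be told apart.

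In 2 of the 3 pairs most of these transcripts were several-fold lower with NGPF2, and in the remaining pair they were nearly equal. Within replicates 2 and 3, C1qa, C1qb, C1qc, Csf1r, Laptm5, Fcrls, Cx3cr1 and Trem2 fell, Tyrobp did not pass the test and P2ry12 was too low to test. Over the 3 pairs none passed. The starting level also differed between the sets of cultures. Fcrls, Laptm5 and Csf1r were far higher in vehicle 1 than in vehicle 2 and 3, whereas Trem2 was far lower there.

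**Figure D1:**
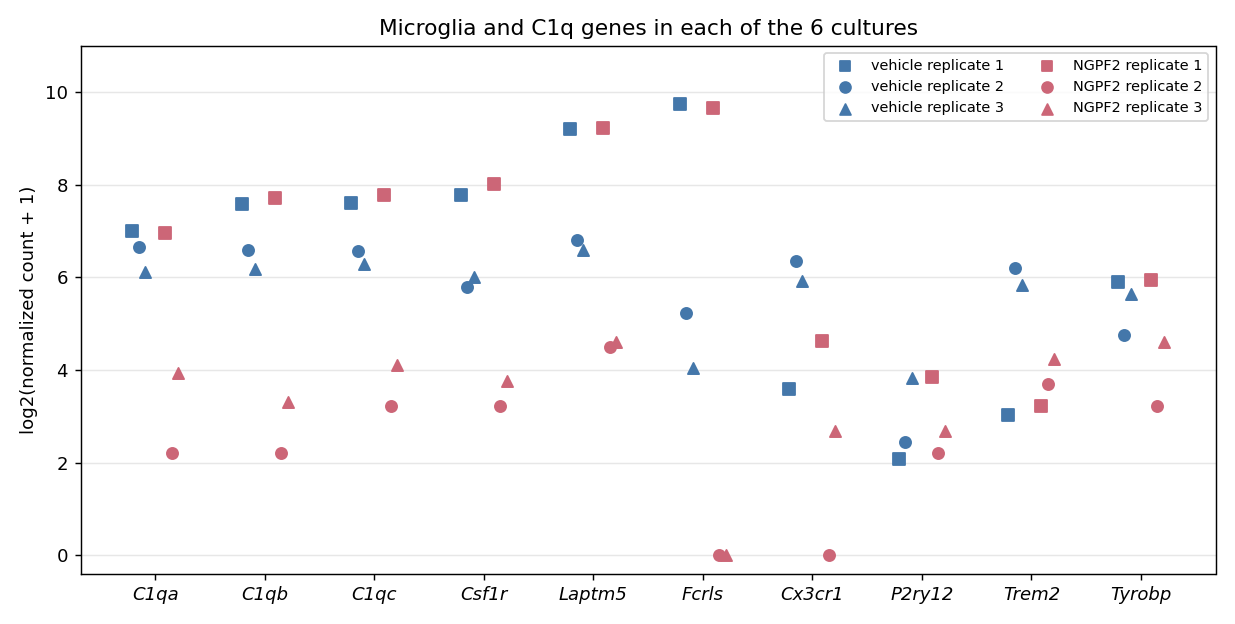
Each point is the log2 of the normalized count plus 1 of a gene in 1 culture, in blue for vehicle and red for NGPF2, with squares, circles and triangles for replicates 1, 2 and 3. The squares of both groups lie close together for most genes, and the red circles and triangles lie below the blue ones for every gene but P2ry12, where they overlap.

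C1qa, which encodes the A chain of C1q, stood at 126, 100.03 and 68.0 normalized counts in the vehicle cultures 1, 2 and 3 and at 123.5, 3.59 and 14.4 in the NGPF2 cultures 1, 2 and 3. C1qb, the B chain, stood at 192, 95.6 and 71.6 with vehicle and 209.8, 3.59 and 8.97 with NGPF2. C1qc, the C chain, stood at 193, 94.7 and 77.5 with vehicle and 219, 8.37 and 16.2 with NGPF2. For each of the chains, NGPF2 2 and 3 lay below every other culture. The fall within replicates 2 and 3 was largest in value for C1qb. For C1qa the log2 difference was -3.31 (SE 0.65, adjusted p = 0.0263, limma). The log2 difference was -3.63 for C1qb (SE 0.49, adjusted p = 0.0103) and -2.77 for C1qc (SE 0.40, adjusted p = 0.0120). NGPF2 2 held only 3 counts each of C1qa and C1qb. The ratio of vehicle to NGPF2 in pair 2 was 27.9 for C1qa (95% counting interval 9.30 to 137) and 26.6 for C1qb (8.88 to 131), and in pair 3 it was 4.74 (2.25 to 11.5) and 7.97 (3.23 to 25.4).

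The 3 chains are made into 1 protein, and their levels can be compared per length of exon. In vehicle 2 and 3 C1qa and C1qb took near equal shares of the summed C1q level per kilobase, 41.3% and 38.2% for C1qa and 37.7% and 38.4% for C1qb. In vehicle 1 and NGPF2 1 the share of C1qb was larger, at 44.3% and 45.4%, and that of C1qa was 30.6% and 27.9%. C1qc took 21.0% to 26.7% in these 4 cultures. In NGPF2 2 and 3 each chain had at most 9 counts, and the shares are not compared.

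Csf1r, the receptor on which microglia depend for survival, stood at 219.9, 54.5 and 63.2 normalized counts in vehicle 1 to 3 and at 259.7, 8.37 and 12.6 in NGPF2 1 to 3. Both cultures of replicate 1 were above all others, and NGPF2 2 and 3 were the lowest. The log2 difference within replicates 2 and 3 was -2.40 (SE 0.36, adjusted p = 0.0131, limma). Csf1r (ENSMUSG00000024621) lies on chromosome 18, 61100598 to 61132149, plus strand, and shares 873 of its 5774 exonic bases with Hmgxb3 on the opposite strand. Hmgxb3 was higher with NGPF2 in the same replicates (log2 difference 0.58, adjusted p = 0.0114), the opposite direction to Csf1r.

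Cx3cr1, the fractalkine receptor, stood at 10.96, 81.3 and 59.6 with vehicle and at 23.7, 0 and 5.38 with NGPF2. Here vehicle 2 and 3 were the highest of the 6 cultures, above replicate 1 of either group. Pair 2 was at least 22.7-fold lower with NGPF2, taking 3 counts per library as the floor. In pair 3, with 3 counts left in the NGPF2 culture, the ratio of vehicle to NGPF2 was 11.1 (95% counting interval 3.58 to 55.5). The log2 difference within replicates 2 and 3 was -4.80 (SE 0.94, adjusted p = 0.0261, limma).

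P2ry12, the purinergic receptor often used to mark homeostatic microglia, stood at 3.22, 4.47 and 13.1 with vehicle and at 13.4, 3.59 and 5.38 with NGPF2. These are 3 to 21 counts per culture, and the groups overlapped. The counting interval of the ratio of NGPF2 to vehicle was 0.125 to 4.13 in pair 2 and 0.0735 to 1.55 in pair 3, and both hold 1. In pair 3 the interval also holds the ratio of C1qc (0.208), while in pair 2 it lies above that of C1qc (0.0884). In pair 1 P2ry12 was 4.17 times as high with NGPF2 (1.53 to 14.1).

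Trem2 stood at 7.09, 72.3 and 56.1 with vehicle and at 8.32, 11.96 and 17.9 with NGPF2. Vehicle 2 and 3 were the 2 high cultures, and NGPF2 2 and 3 lay between them and replicate 1. Within replicates 2 and 3 the log2 difference was -2.05 (SE 0.35, adjusted p = 0.0192, limma). Tyrobp, its adaptor, stood at 58.7, 25.9 and 48.9 with vehicle and at 60.8, 8.37 and 23.3 with NGPF2. NGPF2 2 and 3 lay below vehicle 2 and 3, but NGPF2 3 came close to vehicle 2, and the log2 difference of -1.28 (SE 0.61) did not pass (adjusted p = 0.197, limma). The receptor and its adaptor differed in which set of cultures was higher. Trem2 was 8.33 times as high in vehicle 2 and 3 as in replicate 1, and Tyrobp 1.60 times as high in replicate 1.

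Fcrls, a scavenger-type receptor that in the mouse brain is largely restricted to microglia, stood at 856, 36.6 and 15.5 with vehicle and at 808, 0 and 0 with NGPF2. No read of it was counted in NGPF2 2 or 3, and replicate 1 of both groups was far above all other cultures. The level was at least 10.2-fold lower with NGPF2 in pair 2 and at least 2.88-fold lower in pair 3, at a floor of 3 counts per library. The log2 difference of -4.64 within replicates 2 and 3 (SE 0.71, adjusted p = 0.0136, limma) depends on the 1 added to each value and is no bound. Laptm5, a lysosomal protein of blood-lineage cells, stood at 586, 111 and 95.4 with vehicle and at 595, 21.5 and 23.3 with NGPF2. Within replicates 2 and 3 its log2 difference was -2.15, with the smallest SE among the 9 tested (SE 0.25, adjusted p = 0.00766, limma). Laptm5 ratios of vehicle to NGPF2 were 5.15 in pair 2 and 4.09 in pair 3.

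**Figure D2:**
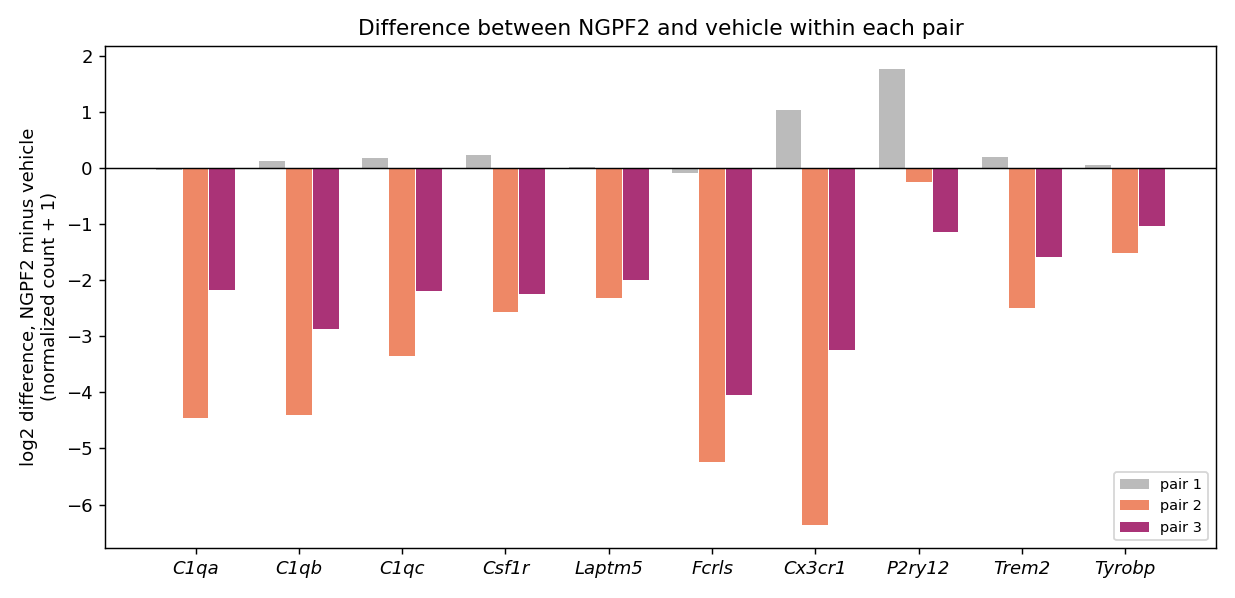
Bars give the log2 difference of the normalized count plus 1, NGPF2 minus vehicle, for each gene in pair 1 (grey), pair 2 (orange) and pair 3 (purple). The bars of pairs 2 and 3 point down for every gene, from -0.25 for P2ry12 to -6.36 for Cx3cr1 in pair 2, while those of pair 1 lie near 0 except for Cx3cr1 and P2ry12.

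Of the 9 genes tested, 8 were called lower within replicates 2 and 3 and none higher, where 11.3% of the 16653 genes were called lower and 9.77% higher (limma, 2 cultures against 2). Tyrobp was the exception. Both NGPF2 cultures lay below both vehicle cultures for each of the 9, as they did for 32.7% of all genes tested, and for P2ry12 they did not. In these same cultures the median log2 difference of the 9 was -3.35 in pair 2 and -2.19 in pair 3, against -0.01 and 0 over all genes tested. Pair 2 showed the larger fall for each of the 9. The comparison within replicates 2 and 3 and the members were both chosen with earlier results of these data known. The 8 calls take replicates 2 and 3 as independent experiments, as the series states. They were lost for all 8 when vehicle 2 or vehicle 3 was left out and when no minimum level was set, and all 8 were called when NGPF2 2 or NGPF2 3 was left out. The log2 difference of C1qa was -3.04 without vehicle 2 and -3.59 without vehicle 3, against -3.31 with both. With values scaled to library totals 2664 genes were called lower and 982 higher, in place of 1884 and 1627, and the same count of 8 of the 9 was called lower. Markers of astrocytes moved with them. All 11 of the 12 listed astrocyte markers that could be tested were called lower, with medians of -3.05 and -2.86 in pairs 2 and 3. Their summed normalized count came to 66264 and 59258 with vehicle and 18105 and 14893 with NGPF2 in these replicates, and to 23763 and 27152 in replicate 1. None of these 11 was at 0 in any culture. Gjb6, the marker too low to test, went from 15.2 and 22.7 in vehicle 2 and 3 to 0 in NGPF2 2 and 3. The part of this astrocyte marker shift in the result was not tested.

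Pair 1 gave a different picture. The counting interval of the ratio of NGPF2 to vehicle held 1 for 7 of the 10 genes. It lay above 1 for Csf1r (1.18, 1.02 to 1.37), Cx3cr1 (2.16, 1.19 to 4.09) and P2ry12, and below 1 for none. These intervals cover counting error only, with 1 culture per group. They were computed for the members alone, so the share of all genes with an interval outside 1 is not known. Fcrls and Laptm5, with the most counts, had the narrowest intervals, 0.873 to 1.02 and 0.926 to 1.11. The fall seen in pairs 2 and 3 was therefore not detected in pair 1, at a depth that bounds it closely for these 2 genes.

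Over the 3 pairs, with the replicate number as a block, none of the 9 passed, and neither did any of the 16653 genes (0%, limma). The log2 differences ranged from -3.12 for Fcrls (SE 1.00, adjusted p = 0.379) to -0.84 for Tyrobp (SE 0.42, adjusted p = 0.411). C1qa, C1qb, C1qc, Csf1r, Laptm5 and Fcrls had an unadjusted p under 0.05, as did 2166 of all genes. Only C1qa and Fcrls were lower with NGPF2 in each of the 3 pairs, 2 of 9 where 18.9% of all genes tested were. Leaving out replicate 1 gives the same fit as replicates 2 and 3 with the replicate block. In it 8 of the 9 passed, as did 3275 of the 16653 genes.

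The difference of the NGPF2 effect between the 2 sets of cultures was tested directly. It was called for 1 of the 9, Laptm5, with a log2 difference of -2.17 between the effects (SE 0.33, adjusted p = 0.0471, limma), where 1.77% of all genes were called with a lower effect in replicates 2 and 3 and 0.721% with a higher one. The other 8 had differences from -1.33 for Tyrobp to -5.85 for Cx3cr1 and adjusted p from 0.0683 (Fcrls) to 0.530 (Tyrobp). Laptm5 missed the threshold when any 1 culture of replicates 2 and 3 was left out (adjusted p = 0.0591 to 0.351). With the replicate block, Laptm5 missed the threshold (adjusted p = 0.0522) and Fcrls passed it (adjusted p = 0.0489). This test assumes that replicate 1, with 1 culture per group, varies as replicates 2 and 3 do.

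The make-up of the summed signal differed between the sets of cultures already without NGPF2. In vehicle 1 Fcrls made up 37.99% and Laptm5 25.99% of the summed normalized count of the 10 genes, and the C1q chains 22.7%. In vehicle 2 and 3 Fcrls made up 5.42% and 2.73%, the C1q chains 42.9% and 38.2%, Cx3cr1 12.02% and 10.5% and Trem2 10.7% and 9.85%. In vehicle 1 Cx3cr1 and Trem2 each made up less, 0.487% and 0.315%. In NGPF2 1 Fcrls made up 34.8%, Laptm5 25.6%, the C1q chains 23.8% and Cx3cr1 1.02%. These shares were not tested.

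**Figure D3:**
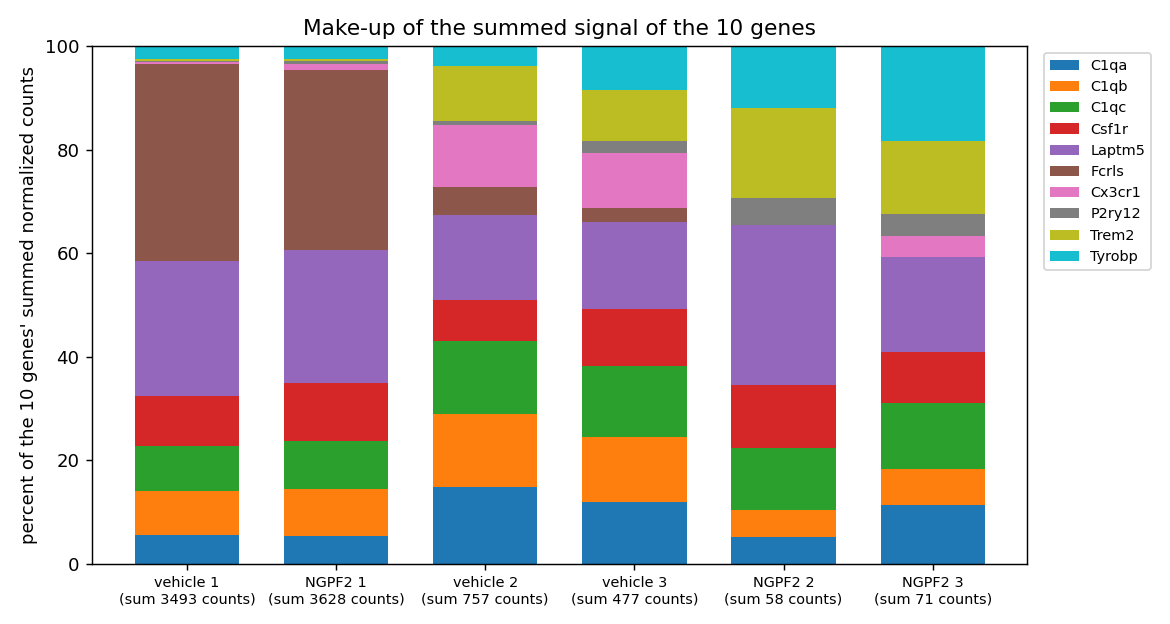
Each bar splits the summed normalized count of the 10 genes in 1 culture into the percent from each gene, with the number of counts behind it under the bar. The 2 cultures of replicate 1 share a large Fcrls part (37.99% and 34.8%), vehicle 2 and 3 share large Cx3cr1 and Trem2 parts, and NGPF2 2 and 3 rest on 58 and 71 counts.

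Among the vehicle cultures, Fcrls was lower in replicates 2 and 3 than in replicate 1 (log2 difference -5.10, SE 0.60, adjusted p = 0.00770, limma). Laptm5 was lower too (-2.50, SE 0.23, adjusted p = 0.00463), as was Csf1r (-1.89, SE 0.36, adjusted p = 0.0255). Trem2 was higher (3.00, SE 0.50, adjusted p = 0.0181). Cx3cr1 was also higher in value but did not pass (2.56, SE 1.16, adjusted p = 0.192). The C1q chains and Tyrobp did not pass, with differences from -1.20 for C1qb to -0.61 for C1qa. Thus 3 of the 9 were called lower and 1 higher, where 9.42% and 10.5% of all genes tested were. The contrast rests on a single culture of replicate 1, and each of the 4 calls was lost when vehicle 2 or vehicle 3 was left out. Without a minimum level, Laptm5 alone passed.

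**Figure D4:**
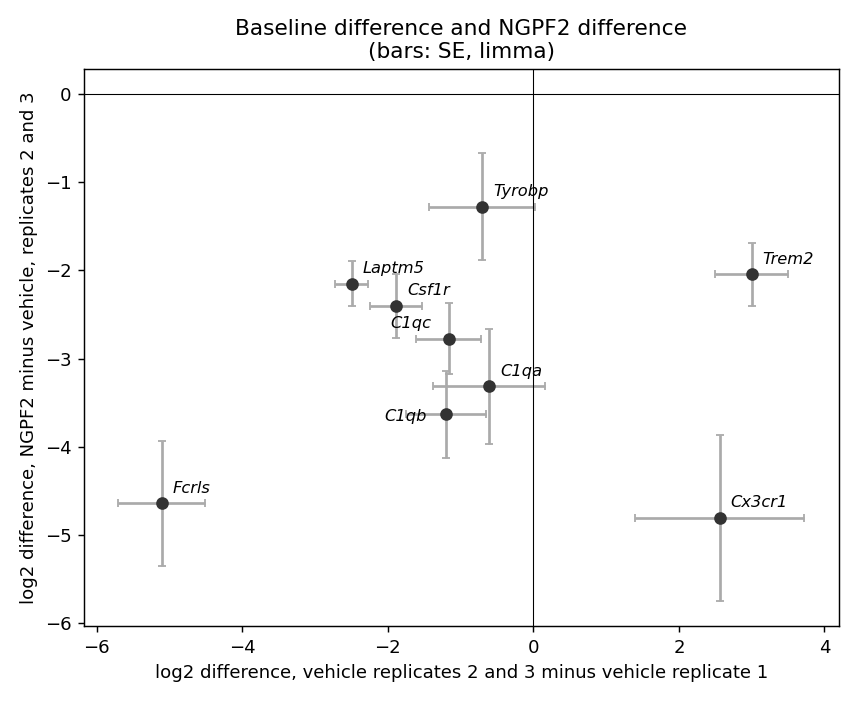
For the 9 genes tested, the horizontal axis gives the log2 difference of vehicle 2 and 3 from vehicle 1 and the vertical axis the log2 difference of NGPF2 from vehicle within replicates 2 and 3, with SE bars from limma. All 9 points lie below 0 on the vertical axis, but on the horizontal axis they run from -5.10 for Fcrls to 3.00 for Trem2. Both axes use vehicle 2 and 3, so the 2 differences share cultures.

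Levels per kilobase of exon put the genes in a different order in each set. In replicate 1, over both cultures, Fcrls came first with a mean of 356 normalized counts per kilobase, then C1qb with 184, Laptm5 with 156, C1qa with 120.1, C1qc with 107, Tyrobp with 89.5 and Csf1r with 41.5. Cx3cr1, P2ry12 and Trem2 were at 3.84, 3.27 and 1.56. In vehicle 2 and 3 C1qa had the highest mean (80.8), then C1qb (76.8), Tyrobp (56.1), C1qc (44.6) and Laptm5 (27.2). The 2 cultures disagreed on the place of Tyrobp, which at 38.8 was below C1qc (49.0) in vehicle 2 and at 73.3 was above C1qa (65.4) and C1qb (65.8) in vehicle 3. Cx3cr1 (15.6), Trem2 (13.0), Fcrls (11.2) and Csf1r (10.2) followed, and P2ry12 (3.45) was last. In NGPF2 2 and 3 Tyrobp led with 23.8, the next was C1qa with 8.63, and Fcrls was at 0. Exonic length was taken over every annotated transcript, so a gene with long rare isoforms reads low on this scale.

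Many general myeloid genes were also highest in replicate 1. Of 20 such genes, all tested, 9 were called lower in vehicle 2 and 3 than in vehicle 1 and none higher. Spi1, which encodes PU.1, stood at 144 and 166 normalized counts in vehicle 1 and NGPF2 1, at 6.25 and 5.96 in vehicle 2 and 3 and at 0 in NGPF2 2 and 3. The common leukocyte antigen Ptprc stood at 104 and 108, at 9.82 and 16.7 and at 13.2 and 14.4 in the same order. Aif1, the microglial calcium-binding protein Iba1, stood at 41.9 and 60.8, at 3.57 and 10.7 and at 0 and 0. In vehicle 2 and 3 Spi1 and Aif1 were thus near the level of a few reads, while Lyz2 and Cd68 were not (340.3 and 349 for Lyz2, 559 and 549 for Cd68).

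Within replicates 2 and 3, 5 of these 20 myeloid genes fell (Cd68, Fcer1g, Ctss, Ly86 and Lyz2) and 2 rose (among them Coro1a). Lyz2, lysozyme, went from 340.3 and 349 with vehicle to 87.3 and 96.9 with NGPF2. Fcer1g, an adaptor chain related in use to Tyrobp, went from 24.1 and 21.5 to 0 and 0, at least 6.72-fold and 3.99-fold lower. The actin regulator Coro1a went from 2737 and 2548 to 3608 and 3275. With vehicle it exceeded the summed normalized count of all 10 members (676 and 569), and which cells gave its reads was not tested. The list medians were -1.31 and -1.05 in pairs 2 and 3 and 0.00 in pair 1.

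Of 15 further genes of homeostatic microglia, 14 were in the table and 9 could be tested. Within replicates 2 and 3, 5 fell (among them Sall1, Olfml3, Mertk and Cst3) and 2 rose (Bin1 and Rgs10). The secreted protein Olfml3 went from 61.6 and 44.1 with vehicle to 3.59 and 8.97 with NGPF2. Mertk, a receptor for engulfment shared with astrocytes, went from 164 and 134 to 15.5 and 8.97. Cst3, cystatin C, went from 8952 and 9245 to 3529 and 3184, and Bin1, an endocytic adaptor, from 4618 and 4585 to 6575 and 7066. In vehicle 2 and 3, Cst3 and Bin1 each exceeded the summed normalized count of all 10 members (676 and 569). Which cells gave these reads was not tested. Selplg and Tgfbr1 did not pass (adjusted p = 0.614 and 0.148, limma). Tmem119, P2ry13 and Gpr34, which mark microglia closely, did not reach 15 normalized counts in any culture and were at 0 in both NGPF2 2 and NGPF2 3. In vehicle 2 and 3 they stood at only 2.68 to 5.36. The floors of 3 counts in NGPF2 2 and 3 are 3.59 and 5.38. At these floors the zeros bound a fall only for Gpr34 in pair 2, at least 1.49-fold. They cannot show whether a fall was large, small or absent.

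Among 16 genes of reactive microglia, 13 could be tested, and 5 fell (Apoe, Spp1, Gpnmb, Axl and Cd9) and 1 rose (Lpl) within replicates 2 and 3. Apoe, a lipoprotein of astrocytes and microglia, went from 10285 and 11234 to 3253 and 1613, and Cd9 from 831 and 880.2 to 163 and 142. Lpl, lipoprotein lipase, went from 1133 and 1137 to 1798 and 1859. Like Cst3 and Bin1, these genes exceeded the members' summed count in vehicle 2 and 3. Among 9 genes of macrophages at the brain's borders, 8 were in the table and 4 were tested. Stab1, a scavenger receptor, went from 140.2 and 131 to 4.78 and 0, and the mannose receptor Mrc1 from 45.6 and 39.4 to 1.20 and 0, and both fell. Ms4a7 and Lyve1 did not pass. Ms4a7 was low in vehicle 2 and 3 (6.25 and 10.7) and stood at 115 and 109 in vehicle 1 and NGPF2 1. Of 10 markers of other blood cells, 7 were in the table and none reached the minimum level.

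The other components and regulators of complement did not move as 1 block. Of 23 listed, 21 were in the table and 18 were tested, and within replicates 2 and 3 6 fell (among them C4b, C1s1, C3ar1, C5ar1 and Masp1) and 1 rose (Calr). C4b, which encodes the component cleaved after C1q binds, stood at 251 and 269 in the replicate 1 pair and at 297 and 308 in vehicle 2 and 3. It was at 0 in NGPF2 2 and 3, at least 82.9-fold and 57.2-fold lower. C1s1, a protease of the C1 complex, went from 41.1 and 46.5 to 9.56 and 8.97, and the C3a receptor C3ar1 from 66.1 and 46.5 to 14.3 and 23.3. The lectin-pathway protease Masp1 went from 148 and 177 to 83.7 and 68.2. The C5a receptor C5ar1 went from 8.93 and 8.35 to 0 and 0, at least 2.49-fold and 1.55-fold lower. It reached the minimum level only through replicate 1 (29.0 and 24.9 normalized counts in vehicle 1 and NGPF2 1). C3, the central component, was at 78.6 and 64.4 with vehicle and 39.5 and 50.3 with NGPF2 and did not pass (adjusted p = 0.143, limma). The chaperone Calr, which can bind C1q on dying cells, went from 9213 and 9385 to 14055 and 13530.5, and the mitochondrial C1q-binding protein C1qbp did not pass. The medians of the 18 were -0.67 and -0.73 in pairs 2 and 3.

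Genes for ligands and signalling partners of the receptors showed 5 falls and no rise among 14 tested. Csf1, a ligand of Csf1r, went from 252 and 213 with vehicle to 40.6 and 71.8 with NGPF2 (log2 difference -2.08, adjusted p = 0.0134, limma). Il34, its other ligand and mostly neuronal, was at 323 and 318 with vehicle and 302 and 361 with NGPF2 (adjusted p = 0.854). Cx3cl1, the neuronal ligand of Cx3cr1, was at 3354 and 3524 and at 4257 and 5711 and did not pass (adjusted p = 0.0653). Syk, the kinase downstream of Tyrobp, fell from 59.8 and 91.8 to 19.1 and 17.9, and Gnai2, a G protein subunit used by Cx3cr1 and P2ry12, from 3108 and 3162 to 1448 and 1312. The Trem2-cleaving protease Adam17 and Clu, an apolipoprotein that Trem2 binds, also fell. In vehicle 2 and 3, Gnai2 and Clu (4433 and 4695 for Clu) each exceeded the members' summed normalized count (676 and 569). Which cells gave these reads was not tested. In the vehicle cultures Il34 and Cx3cl1 were higher in replicates 2 and 3 than in replicate 1 (adjusted p = 0.00433 and 0.0148, limma).

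A list of 14 neuronal genes held pentraxins, sushi-domain proteins linked to complement, and proteins with a C1q-like domain (C1ql1, C1ql2, C1ql3 and C1qtnf4), which are not themselves C1q partners or inhibitors. It gave 3 rises (Nptx2, Nptxr and C1qtnf4) and 3 falls (Csmd3, Srpx2 and C1ql3) within replicates 2 and 3. Nptx2, a neuronal pentraxin that binds C1q, went from 9376 and 11147 to 15902 and 16025, and its receptor Nptxr from 33571 and 33730.0 to 47796 and 41347. Srpx2, which also binds C1q, went from 71.5 and 99.0 to 16.7 and 8.97. Sez6l2 did not pass. The list medians were 0.20 and -0.07 in pairs 2 and 3.

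**Figure D5:**
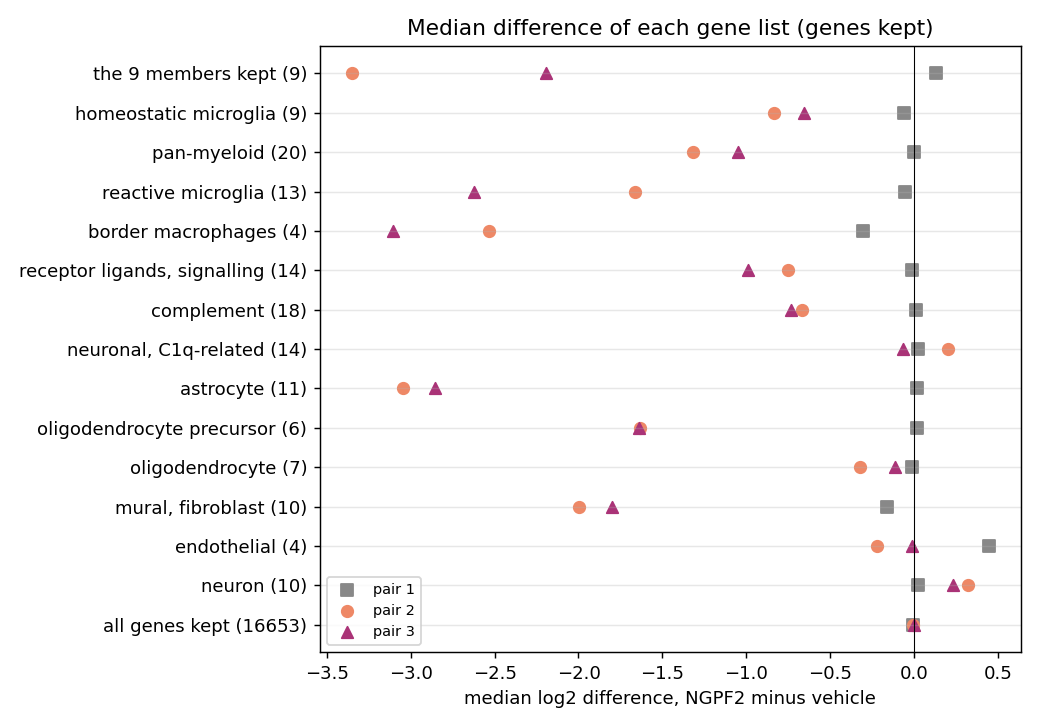
Each row gives the median log2 difference between NGPF2 and vehicle for a list of genes in pair 1 (square), pair 2 (circle) and pair 3 (triangle), with the number of genes tested in brackets. In pairs 2 and 3 the tested members (-3.35 and -2.19) lie on the low side. So do the lists of astrocytes, border macrophages, reactive microglia (-1.66 and -2.63), mural cells and oligodendrocyte precursors. Homeostatic microglia (-0.83 and -0.65) lie nearer 0. Neurons lie slightly above 0, and most squares lie near 0.

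Other non-neuronal lists differed in pairs 2 and 3. Markers of oligodendrocyte precursors had medians of -1.63 and -1.64 and 4 of 6 fell, and those of mural cells and fibroblasts had medians of -1.999 and -1.80, with 4 of 10 lower and 1 higher. Oligodendrocyte markers had medians of -0.32 and -0.11 and 2 of 7 fell, and endothelial markers had medians of -0.22 and -0.01 and 0 of 4 passed. Of 10 neuronal markers 5 rose and none fell, with medians of 0.32 and 0.23. Mural and fibroblast genes were also, like Fcrls, lower in vehicle 2 and 3 than in vehicle 1 (6 of 10 called, median -2.36). Astrocyte markers went the other way, with 8 of 11 called higher in vehicle 2 and 3 (median 1.07), the direction of Trem2.

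The genes whose profile over the 6 cultures was nearest to the median profile of the 9 tested members were Parp14, Vtn, Cyp1b1, Oasl2, Bst2, Zkscan7, Ldhd and Itih5. Likeness was measured as the Euclidean distance between log2 values centred on each gene's mean, over 6 cultures, and ran from 0.43 for Parp14 to 0.90 for Itih5. The median gene tested lay at 4.22. Parp14 stood at 77.4 and 73.6 in vehicle 1 and NGPF2 1, at 33.0 and 33.4 with vehicle in replicates 2 and 3, and at 3.59 and 5.38 with NGPF2 there. The profile is the median of these same 9 members, so their closeness to it is partly built in. Of the members, C1qc (0.22) was nearest to the median profile, and Fcrls (5.90), Trem2 (5.23) and Cx3cr1 (3.52) were the farthest. The last 3 thus departed from the median profile. Fcrls was high in replicate 1 and had no reads in NGPF2 2 and 3. Trem2 and Cx3cr1 were lower in replicate 1 than in vehicle 2 and 3. The part of each culture in these distances is not given. Fcrls and Trem2 lay farther from it than the median gene tested (4.22). Their correlations with the profile were r = 0.95 for Fcrls and r = -0.02 for Trem2.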

How the data were processed

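Libraries were made from poly(A) RNA, per the labels' protocols. FastQC, STAR 2.5, Cuffnorm, DESeq 1.22.1 and mm10 are named in the submitters' processing notes, without role or order. The authors' deposited table carries FPKM in its name but holds log2 values, of normalized counts with 1 added: 2 to the value minus 1 is a whole multiple of 1 step per library for 100% of values (tolerance 0.01 of a count), and the inverse of the step equals the median-of-ratios size factor. Counts recovered in this way gave depths, counting intervals (95%, exact) and floors of 3 counts, which cover counting error only. Replicate 1 columns, whose names carry the digit 3, were assigned by elimination and initial.

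The members, the lists and the comparison within replicates 2 and 3 were chosen with earlier results of these data known. Tests used limma (3.58.1, R 4.3.3) on the deposited log2 values over 16653 genes (mean of at least 10, trend, 2-sided, Benjamini-Hochberg adjustment, threshold 0.05). Rose, fell and called refer to that threshold. The replicate block rests on the series' 3 pairs. As a check, deviations from group means correlated between same-numbered cultures at r = 0.59, 0.30 and 0.33, and at 0.34 and 0.32 with replicates 2 and 3 crossed. Contrasts between sets of cultures used 1 model with a mean per group and set. A symbol was found for 31185 identifiers. Exons come from GENCODE M21 and promoter windows from RefSeq. The rule for named genes took every member, the 3 most abundant or the called genes of a list and the 8 nearest profiles. Spi1, Ptprc, Aif1, Tmem119, P2ry13, Gpr34, Selplg, Tgfbr1, Il34, C3, C1qbp and Hmgxb3 and further called genes were named after their values were seen. Some genes of the lists are counted but not reported here by name. Tests were tried on simulated data first. Figures used matplotlib 3.10.9 in Python 3.11.15.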

Additional observations from a re-analysis of the deposited data

Results flagged for a closer look

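Laptm5 was singled out because its NGPF2 effect differed between replicates 2 and 3 and replicate 1 by the direct test of that difference (log2 difference -2.17, adjusted p = 0.0471, limma). It stood at 586 and 595 normalized counts in vehicle 1 and NGPF2 1, at 111 and 95.4 in vehicle 2 and 3 and at 21.5 and 23.3 in NGPF2 2 and 3. Over its alternatives the adjusted p ran from 0.0201 to 0.351, and 5 of 13 missed the threshold.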

How the results depend on the processing

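Of 456 log2 differences of single genes under the alternatives, none changed sign, 388 stayed on their side of the threshold, 40 lost it and 28 gained it. Changes of the filter, the prior or the block leave the log2 difference as it was, so its sign could not change there. The counts of calls moved more. Over the 3 pairs 0 genes passed, and 1 passed with a pseudocount of 5, with no replicate block and with the set of cultures as block, while leaving out a pair gave 0 to 3275 genes and 0 to 8 of the 9 tested members, the high values without replicate 1. Within replicates 2 and 3 the 3511 genes became 1074, and the 8 members 0, with no filter, and leaving out a culture gave 0 to 3206 genes and 0 to 8 members, 0 without vehicle 2 or vehicle 3. With the replicate block, which is the same fit as the 3 pairs without replicate 1, 3275 genes and 8 members passed. The paired fit changed no other call of a member than those of Laptm5 and Fcrls given above.

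The difference of the effect between sets was called for 415 genes and 1 member. It was called for 733 and 2 with a minimum mean of 50, for 4684 with no filter, for 1368 and 7 with voom on recovered counts, for 867 and 5 with a robust prior, and for 0 to 412 and 0 to 2 when a culture was left out. Among vehicle cultures 3322 genes passed, with 3 members lower and 1 higher. With voom these were 4999, 5 and 2, and leaving out a culture gave 0 to 3898, 0 to 3 and 0 to 2. With no filter 1 member was lower and 0 higher, with a pseudocount of 5 2 were higher, and with a minimum of 50, which drops Trem2 and Cx3cr1, 0. The cause of these changes was not tested. Leaving out replicate 1 of a group gives no value for the difference between sets, and leaving out vehicle 1 none for the vehicle contrast. Depth limits Fcrls, Cx3cr1, P2ry12, Csf1r and the C1q chains, at 0 to 9 counts in NGPF2 2 and 3.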
